A study of Mus musculus with 2 samples.

Results

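The odorant receptor genes Olfr827, Olfr1325, Olfr235, Olfr912, Olfr1295 and Olfr1440 were followed among the 1135 receptor genes measured in single cells of the mouse olfactory epithelium. The 6 genes were listed by name as receptors whose neurons depend on stimulation, and were found by symbol. A cell was said to carry a receptor if it held at least 3 UMIs (unique molecular identifiers, counted mRNA molecules) of it and these made up at least 2 in 3 of its receptor UMIs. By this rule 27 cells carried 1 of the 6 receptors, of 2169 receptor-carrying cells and 12491 cell barcodes in all.

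Both sides of the epithelium were taken at postnatal day 28 from a mouse (male, C57BL/6) that had undergone unilateral naris occlusion, the closing of a single nostril, at postnatal day 14. One library was made from the closed side (L) and one from the open side (R), so both groups share animal, strain, age and the operation, and there is 1 library per side. The deposited matrix tells the libraries apart only by a barcode suffix, which no label or file ties to a side. The names library 1 and library 2 follow that suffix, and no statement below says which is the closed side. With 1 library per side no test between sides is possible, and each interval given is an exact 95% interval, binomial for shares and Poisson for levels, that covers counting error only.

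Each olfactory sensory neuron (OSN) expresses a single receptor gene out of a large family, and that choice fixes both the odours it answers and the glomerulus its axon reaches. OSNs are replaced throughout life from basal stem cells, and for some receptors the number of newborn neurons is known to depend on odour stimulation, so that closing a nostril lowers it. Olfr827 and Olfr1325 were named in work on this dependence. Olfr235 and Olfr1440 are receptors for musk odours such as muscone, and Olfr912 and Olfr1295 have been reported to answer compounds emitted by male mice. Odour-driven firing also changes the mature neuron. The calcium-binding protein gene S100a5 and the adhesion gene Kirrel2 are raised by activity, whereas Kirrel3, the calretinin gene Calb2 and the ephrin gene Efna5 are higher in silent neurons.

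The 6 receptors are spread over 5 chromosomes. In mm10, Olfr235 (ENSMUSG00000060049) and Olfr1440 (ENSMUSG00000046650) lie on chromosome 19, at 12261032 to 12270387 and 12387279 to 12401584, both on the plus strand. Olfr827 (ENSMUSG00000045559) lies on the minus strand of chromosome 10 at 130203049 to 130214403, and Olfr912 (ENSMUSG00000111448) on the plus strand of chromosome 9 at 38580178 to 38586876. Olfr1295 (ENSMUSG00000108919) lies on the minus strand of chromosome 2 at 111561423 to 111569681, and Olfr1325 (ENSMUSG00000051706) on the plus strand of the X chromosome at 74592679 to 74597578. All are annotated as protein coding, and no other annotated gene overlaps them. The coding stretch at the inner end of the third transmembrane helix is shown to let the genes be compared at a place the family keeps. Capitals mark the 15 bases that encode the family's conserved motif there, each stretch is 60 bases of coding exon read 5′ to 3′ on the gene's own strand, and coordinates are mm10 (GENCODE M21).
Olfr827, chr10:130210697-130210756: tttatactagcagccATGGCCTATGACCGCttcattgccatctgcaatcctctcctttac
Olfr1325, chrX:74594682-74594741: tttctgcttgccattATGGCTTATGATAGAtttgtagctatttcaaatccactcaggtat
Olfr235, chr19:12268571-12268630: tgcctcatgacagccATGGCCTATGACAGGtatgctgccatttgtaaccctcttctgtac
Olfr912, chr9:38581615-38581674: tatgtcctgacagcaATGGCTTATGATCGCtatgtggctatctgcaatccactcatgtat
Olfr1295, chr2:111565047-111565106: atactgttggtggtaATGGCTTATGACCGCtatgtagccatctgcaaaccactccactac
Olfr1440, chr19:12394604-12394663: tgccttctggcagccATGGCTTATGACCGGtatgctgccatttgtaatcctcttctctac

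All 6 stretches shared 27 of the 60 bases, 11 of them among the 15 in capitals. The musk receptors Olfr235 and Olfr1440 shared 53, and the least alike pair, Olfr1325 and Olfr235, shared 35. Over the whole coding sequence the 15 pairs were 53.4% to 68.0% identical, with a median of 55.9%, and Olfr235 with Olfr1440 was again the closest pair. Other receptors are far closer to some members. Olfr1431 is 96.5% identical to Olfr235 and Olfr910 is 96.0% identical to Olfr912, so reads of these pairs could be split or lost where they fall in near-identical sequence. The nearest relative was at 87.6% for Olfr1295 (Olfr1298), 71.3% for Olfr827 (Olfr826), 69.3% for Olfr1440 (Olfr1438-ps1) and 60.2% for Olfr1325 (Olfr1020).

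A receptor of the set was either abundant in a barcode or nearly absent from it. At least 1 UMI of a member was found 79 times, and 27 of these were carrying cells with 10 to 111 UMIs of their receptor. Of the other 52 finds, 46 were single UMIs. Carrying cells held 94.2% of the 1454 UMIs of the 6 genes, and 23 of the 27 had no UMI of any other receptor. The lowest share of the carried receptor was 86.7%, in an Olfr1440 cell with 13 of its 15 receptor UMIs. The other 6 included 4 barcodes with 2 UMIs of a member and no other receptor, 1 UMI short of the limit: Olfr1295 in each library, and Olfr1440 and Olfr235 in library 2. With these counted there would be 31 cells, 6 in library 1 and 25 in library 2. The limits of the rule are drawn in the plot of UMIs against share.

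**Figure D1:**
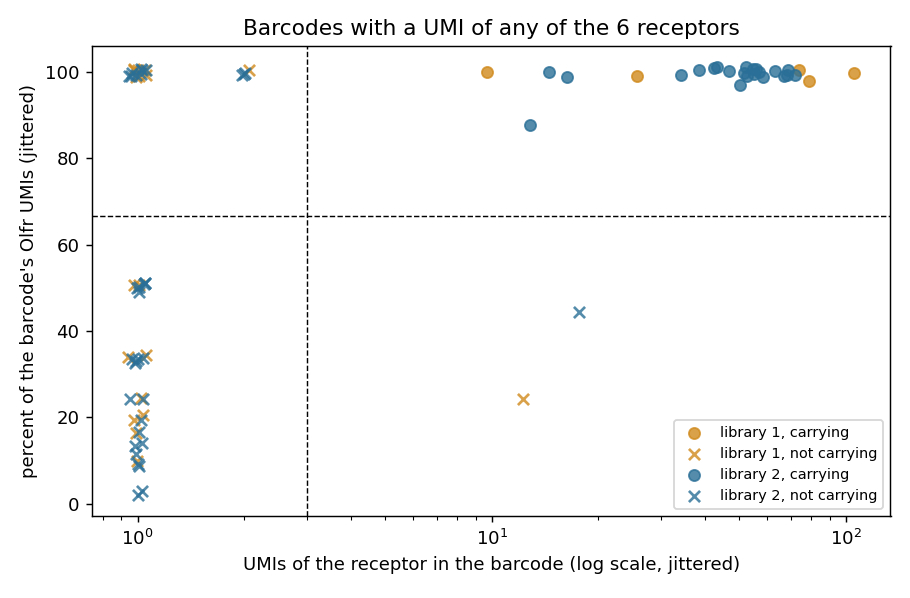
UMIs of a member receptor in a barcode (x axis, log scale) against its percent of all receptor UMIs of that barcode (y axis), 1 point for each of the 79 finds, with jitter. Dashed lines mark 3 UMIs and 2 in 3. The 27 carrying cells (circles) lie at 10 UMIs or more and at 86.7% or more, and 46 of the 52 other finds (crosses) are single UMIs.

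Single UMIs in barcodes that should lack receptors give the background. Among barcodes with at least 10 UMIs of sustentacular (supporting) cell markers and no carried receptor, Olfr827 had a UMI in 3 of 2006 in library 1 (0.150%, 0.0309 to 0.436) and in 4 of 3392 in library 2 (0.118%, 0.0321 to 0.302). In Omp-high barcodes, defined below, the same gene was found in 0.387% and 0.503%, with up to 76 and 68 UMIs. Median depth was 5953 and 5784 UMIs in the sustentacular-type barcodes and 5635 and 5207 in the Omp-high ones. Olfr1325 was found in 3 of 3392 sustentacular-type barcodes and in 1 of 995 Omp-high barcodes of library 2, each time with 1 UMI. Its few UMIs are therefore at the background level, and no cell expressing Olfr1325 was detected at this depth.

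A pair of barcodes held many UMIs of a member without carrying it. A barcode of library 2 had 18 UMIs of Olfr235 and 18 of Olfr115 among 40 receptor UMIs. In library 1, a barcode with 23348 UMIs had 12 of Olfr1440, 27 of Olfr53 and 7 of Olfr1082 among 50. The latter is the only barcode of library 1 with more than 1 UMI of Olfr1440, and it also passed the limit for sustentacular markers. Whether such barcodes hold more than 1 cell was not tested.

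Cells carrying the 6 receptors were a larger share of library 2. They were 5 of 879 receptor-carrying cells in library 1, 0.569% (0.185 to 1.32), and 22 of 1290 in library 2, 1.71% (1.07 to 2.57). The share was 2.998 times as large in library 2 (1.11 to 10.1). The members were chosen with earlier results of these data known, so this gap is not independent evidence. Olfr1440 made up much of the gap: without it the ratio was 1.91 (0.649 to 6.77), an interval that includes 1, and without Olfr827 it was 5.79 (1.37 to 51.7). Depth was alike in the libraries, with medians of 5373 and 5113 UMIs in receptor-carrying cells. With every barcode thinned to 2000 UMIs, which left out 852 and 1669 shallower barcodes, the shares were 0.428% and 2.12% and their ratio 4.96 (1.49 to 25.9). In barcodes that passed a filter on depth and mitochondrial RNA, 3 and 21 cells remained, a ratio of 4.47 (1.34 to 23.4).

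Olfr1440, a musk receptor, was the member with the widest gap. It was carried by 0 of 879 cells in library 1, where 3 cells would be 0.341% and the exact interval reaches 0.419%, and by 8 cells of library 2, 0.620% (0.268 to 1.22). Its RNA was not absent from library 1. In sustentacular-type barcodes it was found in 5 of 2006 in library 1 (0.249%, 0.0810 to 0.581) and in 8 of 3392 in library 2 (0.236%, 0.102 to 0.464). Those of library 1 include the barcode with 12 UMIs of Olfr1440 described above. Set against a floor of 3 cells in library 1, the share was at least 1.82-fold higher in library 2, and the exact interval of the ratio begins lower, at 1.16. Among the 135 receptor genes with at least 5 carrying cells, Olfr1440 was the only one with no cell in library 1 (0.741%), while 2 genes had none in library 2 (1.48%). The 9 other receptor genes with 8 carrying cells had 1 to 5 of them in library 1, with a median of 3. This rank was read after the values were seen.

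Olfr827 was carried as often as Olfr1440 but in both libraries. Its cells numbered 3 in library 1, 0.341% (0.0704 to 0.994), and 5 in library 2, 0.388% (0.126 to 0.902), a ratio of 1.14 (0.221 to 7.31). Olfr235, the other musk receptor, had 1 cell in library 1 and 4 in library 2, a ratio of 2.73 (0.270 to 134). Both intervals include 1 and are wide, so these counts settle no direction for either gene. Olfr1295 had 1 and 2 cells, and Olfr912 had 0 and 3 cells, where 3 cells is itself the floor and gives no fold. Of 72 other receptor genes with 3 carrying cells, 13 also had all of them in library 2.

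A 2-fold gap was common among all receptors. Of the 3 members with at least 5 carrying cells, Olfr235 alone reached a 2-fold larger share in library 2, while 23.7% of the 135 receptor genes did so. Olfr1440 fell short only because a floor of 3 cells stands in for its 0 cells in library 1. Its 1.82-fold is therefore a lower bound and does not make its gap smaller than that of Olfr235. A further 23.7% of the 135 had a share at least 2-fold lower in library 2, and no member did. The count of members past this limit is thus near the background and is no result about them. In the plot of cell numbers in library 1 against library 2, Olfr827 and Olfr235 lie within this scatter and Olfr1440 at its edge.

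**Figure D2:**
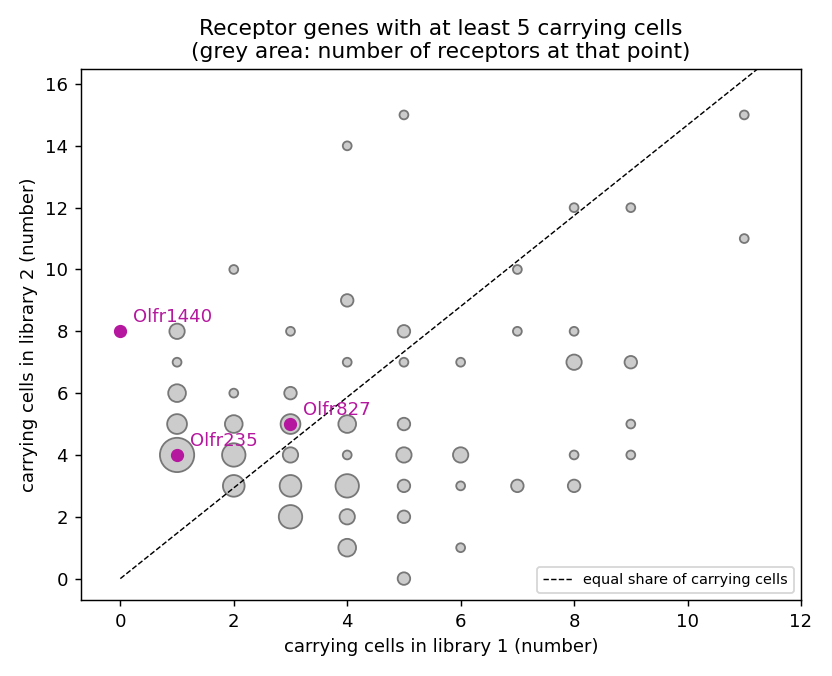
Carrying cells in library 1 (x axis) and library 2 (y axis) for the 135 receptor genes with at least 5 carrying cells. Grey areas scale with the number of genes at a point, coloured points are members, and the dashed line marks equal shares. Olfr1440 stands alone at 0 and 8 cells, Olfr827 lies at 3 and 5, and Olfr235 shares its place at 1 and 4 with other genes.

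In number of cells the members ranged from absent to frequent. Of the 1135 receptor genes, 695 had a carrying cell, with a median of 1 cell and at most 26. More cells than the 8 of Olfr827 and of Olfr1440 were seen for 48 genes, more than the 5 of Olfr235 for 101, and more than the 3 of Olfr912 and of Olfr1295 for 188. Olfr1325 was among the 440 receptor genes with no carrying cell. For its 0 cells the exact interval reaches 0.419% in library 1 and 0.286% in library 2.

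Most carrying cells were at the mature stage. Cells with at least 3 UMIs of Omp, the olfactory marker protein of mature OSNs, plus Gap43, a growth protein of immature ones, were called Omp-high where Omp was at least 1 in 2 of these UMIs and Gap43-high otherwise. These stages are ranges along one scale, and 3 member cells lay within 10 percentage points of the border. In library 2, 19 of the 22 cells were Omp-high and 3 were Gap43-high (13.6%), against 27.4% Gap43-high among all receptor-carrying cells. Member cells were 2.31% of the Omp-high receptor-carrying cells there (1.40 to 3.59) and 0.847% of the Gap43-high ones (0.175 to 2.46). These intervals overlap, so the counts settle no difference in stage. The Gap43-high cells were 2 of the 3 Olfr912 cells and 1 of the 8 Olfr1440 cells. No Olfr827, Olfr235 or Olfr1295 cell was Gap43-high in either library.

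In library 1, 3 cells were Omp-high, 2 with Olfr827 and 1 with Olfr1295. The other two, 1 with Olfr827 and 1 with Olfr235, had too few UMIs of both genes for a stage. They held 1114 and 1092 UMIs in all, of which 31.8% and 30.4% were mitochondrial, against a median of 4.53% in receptor-carrying cells of that library. These 2 cells enter the cell counts and no comparison of gene levels. An Omp-high Olfr827 cell of library 2 with 5451 UMIs was also high, at 22.1% mitochondrial, and it stays in the comparisons below. It had no UMI of S100a5. The cell filter leaves it out, and S100a5 in the remaining 18 Omp-high member cells of library 2 was then at 1354 CPM (1116 to 1628).

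**Figure D3:**
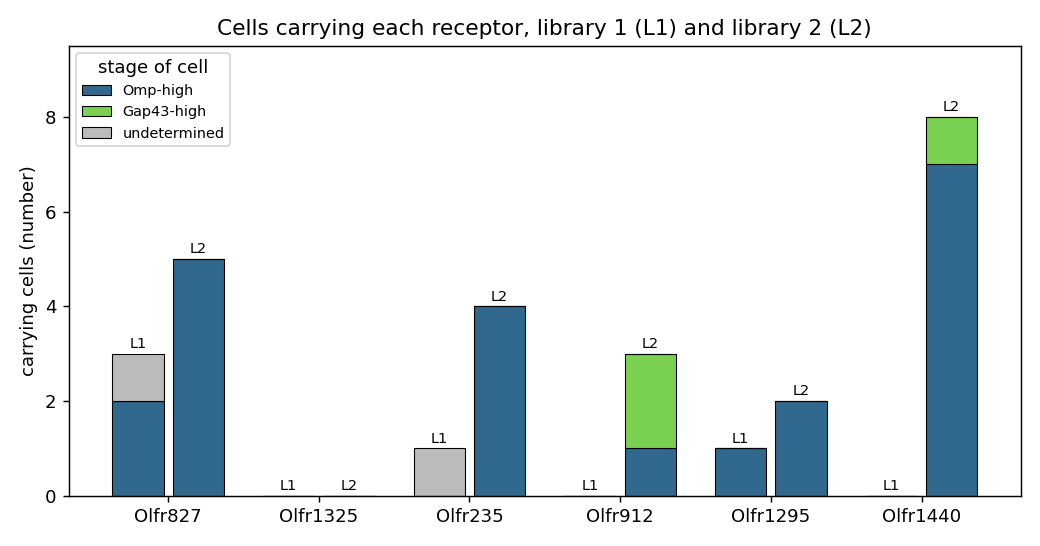
Number of cells carrying each of the 6 receptors (y axis) in library 1 (L1) and library 2 (L2), with bar sections for the stage of the cells. Olfr1440 has 8 cells in library 2 and 0 in library 1, Olfr827 has 5 and 3, and Olfr1325 has none.

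The neurons' identity was checked against marker lists. Each of the 27 cells had UMIs of the 8 mature OSN markers and of the 7 immature ones, summed over each list. Markers of horizontal basal cells (Krt5, Krt14, Trp63, Krt15) and of microvillous cells (Trpm5, Ascl3, Cftr, Foxi1) were at 0 in all of them. Horizontal basal markers were also rare in cells of other receptors, in 15 of 874 and 51 of 1268, so these zeros set no member cell apart. In library 2, Bowman gland and immune markers were each found in 4 of 22 member cells, against 333 and 241 of 1268. Of the vomeronasal markers only Gnao1 was detected, in 2 of 5 and 14 of 22 member cells. All 5 sustentacular markers were detected, in 2 of 5 cells of library 1 and 16 of 22 cells of library 2. Their summed level ran from 0 to 18177 CPM (UMIs of a gene per 1000000 UMIs) in library 1 and from 0 to 12382 CPM in library 2, with medians of 0 and 213 CPM. The highest value belongs to an Omp-high Olfr827 cell of library 1 with 10948 UMIs, and its part in the results of that cell was not tested.

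The carried receptor itself was strongly transcribed. In Omp-high cells of library 2 the 19 member cells held 15 to 74 UMIs of their receptor, with a median of 53, and a median level of 11393 CPM (6019 to 18011). Cells carrying other receptors had a median of 7445 CPM. Olfr827 cells had the highest median, 14098 CPM, then came Olfr1295 (11836), Olfr1440 (11393), Olfr235 (10377) and the single Olfr912 cell (6019). The ranges of Olfr827 (11284 to 18011), Olfr1440 (6856 to 16334) and Olfr235 (8213 to 12010) overlap, so neighbours in this order were not separated. In library 1 the 2 Omp-high Olfr827 cells stood at 6942 and 15529 CPM and the Olfr1295 cell at 14162 CPM, against a median of 7842 CPM for other receptors. Among Gap43-high cells of library 2, the 2 Olfr912 cells held 7004 and 6913 CPM and the Olfr1440 cell 2676 CPM, against a median of 3821 CPM.

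In the mature cells of library 2, S100a5 was low. The 5 Olfr827 cells held 0, 0, 0, 269 and 717 CPM of S100a5. The 4 Olfr235 cells held 0, 215, 2415 and 6743 CPM. The 7 Olfr1440 cells held 0, 152, 512, 1426, 2115, 3086 and 3993 CPM. Neurons with the same musk receptor thus ranged from none to 6743 CPM (Olfr235) or 3993 CPM (Olfr1440), whereas no Olfr827 cell exceeded 717 CPM. The 2 Olfr1295 cells stood at 1036 and 1800.4 CPM and the Olfr912 cell at 1605 CPM.

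Cells carrying other receptors had a median of 5227 CPM in the same library and stage, with the middle 50% from 356 to 15758 CPM over 803 cells. Of the 19 member cells, 18 lay below that median. The exception was the Olfr235 cell at 6743 CPM, above 55.4% of the other cells. Summed over cells, S100a5 was at 1271 CPM in member cells (1047 to 1528) and at 10280.4 CPM in the others (10191 to 10371), 8.09 times as high (6.73 to 9.82). The level in member cells was 1588 CPM without Olfr827 and 1284 CPM without Olfr1440. Median depth was 4493 UMIs in member cells and 5104 in the others. In sustentacular-type barcodes of library 2, where free RNA would show, S100a5 stood at 94.3 CPM, a value inside the interval of Olfr827 cells, 197 CPM (53.8 to 505).

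Among receptors the members' S100a5 level was not extreme. Of the 101 receptor genes with at least 3 Omp-high cells in library 2, levels ran from 0 to 61407 CPM, with a median of 5708 CPM and quartiles at 963 and 14289 CPM. Counted from the lowest, Olfr827 was number 15 at 197 CPM, Olfr1440 number 30 at 1253 CPM (924 to 1661), and Olfr235 number 39 at 2385 CPM (1726 to 3213). Olfr827 was thus below the lower quartile, and both musk receptors lay between it and the median. All 3 were at least 2-fold below the level of the pooled cells of other receptors, as were 48.5% of the 101 genes. One Olfr235 cell held 74.4% of that receptor's S100a5 UMIs.

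**Figure D4:**
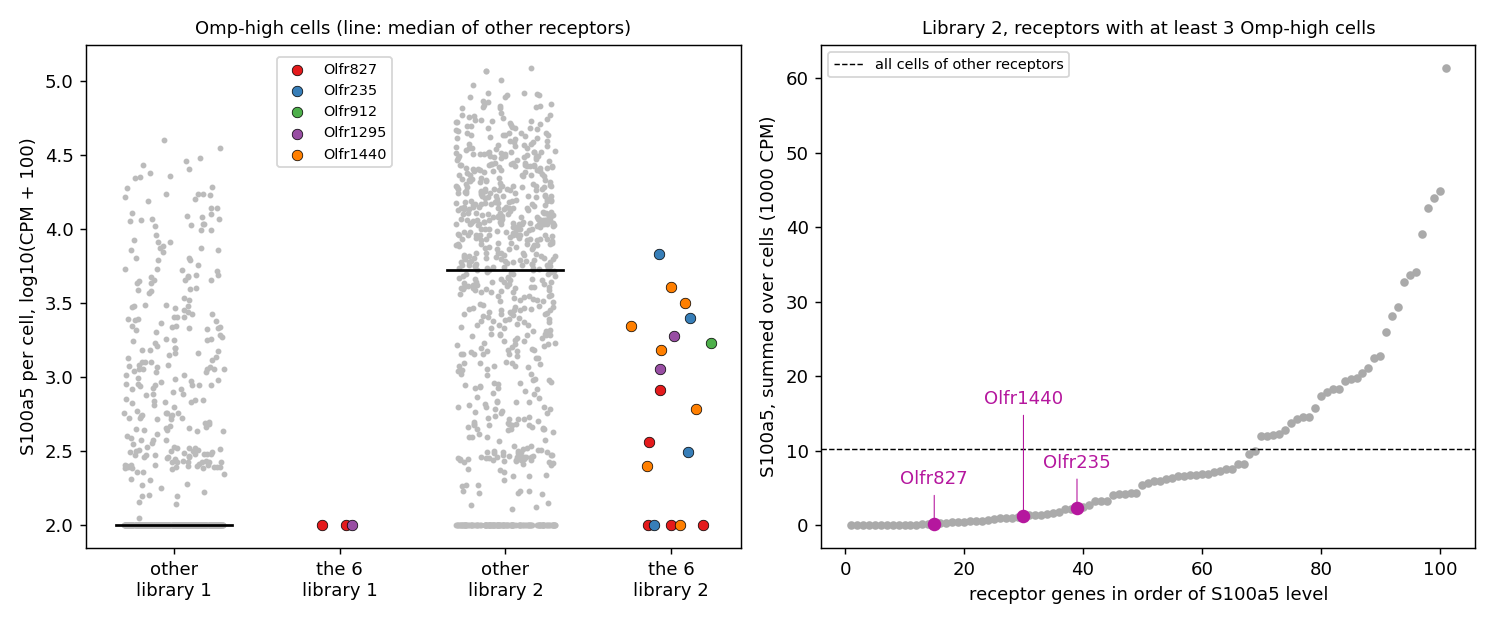
Left, S100a5 per Omp-high cell as log10(CPM + 100) (y axis) for cells carrying other receptors (grey, line at the median) and cells carrying the 6 receptors (coloured by receptor), by library. Right, S100a5 summed over Omp-high cells of library 2 in units of 1000 CPM (y axis) for 101 receptor genes in rising order (x axis), with the dashed line at 10280.4 CPM for all cells of other receptors. Of 19 member cells in library 2, 18 lie below the median, and the 3 members are at places 15, 30 and 39.

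Other genes raised by activity were mostly low in the pooled member cells, though not in each receptor. Pcp4l1, a relative of a calmodulin regulator, had 2 UMIs over the 19 cells, 22.5 CPM (2.72 to 81.2), against 1151 CPM (1121 to 1181) in cells of other receptors. It stood at 224 CPM in sustentacular-type barcodes. Kirrel2, an adhesion molecule that sorts OSN axons, was at 67.5 CPM (24.8 to 147) against 196 CPM (184 to 209). Cidea had 3 UMIs, 33.7 CPM (6.96 to 98.6), against 112 CPM. Cplx2, a regulator of transmitter release, went the other way at 214 CPM (129 to 334) against 159 CPM, a level inside the interval of the member cells. Of the 10 genes in the activity-raised list, 8 were lower in member cells and 5 were at least 2-fold lower, against 47.7% and 18.4% of the 10277 genes at 10 CPM or more in either group. The fifth was Rasgrp4, with no UMI in member cells and 18.8 CPM in the others, under the 33.7 CPM that 3 UMIs would give, so no fold can be stated for it.

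Counts over the list varied by receptor. In Olfr827 cells all 10 genes were lower than in cells of other receptors, against 61.0% of all genes at 10 CPM or more, and Pcp4l1 and Kirrel2 had no UMI in the 5 cells, which allows each up to 182 CPM. A single UMI over these cells is 49.3 CPM, so the listed genes of low level carry little weight in that count. Their summed level of the list, 345 CPM, was number 5 from the lowest of the 101 receptor genes. Olfr1440 was number 28 at 1670.5 CPM and Olfr235 number 40 at 3439 CPM. S100a5 is part of these sums, with 197 CPM in Olfr827, 1253 CPM in Olfr1440 and 2385 CPM in Olfr235 cells. These ranks are therefore not separate from the ranks by S100a5 alone. In the 4 Olfr235 cells, 4 of the 10 genes (Cplx2, Etv5, Lrrc3b and Sema7a) were higher than in cells of other receptors, each at least 2-fold and with 2 to 6 UMIs, against 39.4% of all genes higher and 18.9% at least 2-fold higher.

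Several genes of the opposite kind, higher in silent neurons, were high. Efna5, an ephrin that guides axons by repulsion, was at 359.9 CPM (246 to 508) in the 19 cells against 102 CPM (92.8 to 111) in cells of other receptors. Its 32 UMIs lay in 13 cells, and the 5 Olfr827 cells all had some, 839 CPM (489 to 1343). Plxna1, a semaphorin receptor gene, was at 281 CPM (182 to 415) against 97.01 CPM (88.5 to 106), with like levels in Olfr827 (345), Olfr235 (388) and Olfr1440 cells (287). Efna3, another ephrin, was at 607 CPM (456 to 792) against 333 CPM (317 to 350).

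Calb2, the gene of the calcium buffer calretinin, was uneven. It stood at 945 CPM (753 to 1169) against 601 CPM (580 to 624), but its 84 UMIs lay in 9 of the 19 cells and 1 Olfr1440 cell held 38.1% of them. In that receptor 2 of 7 cells held all 40 UMIs, and the cell with 32 of them had 1 UMI of S100a5. These 2 cells had 2 and 4 UMIs of Gap43, and 11 of the 13 Calb2 UMIs of Olfr235 lay in a cell with 3. Among Olfr827 cells 4 of 5 had Calb2, at 1431 CPM (958 to 2055), each with at most 1 UMI of Gap43. In library 2 Calb2 was also higher in Gap43-high than in Omp-high cells of other receptors, at 1230 CPM (1187 to 1274). The part of stage in these Calb2 levels was not tested. The chromatin gene Hist2h2be, a histone variant that accumulates in silent neurons, was at 765 CPM (594 to 969) against 558 CPM (537 to 579), with 1070 CPM (768 to 1452) in Olfr1440, 832 CPM (466 to 1372) in Olfr235, 493 CPM (237 to 907) in Olfr827 and 204 CPM (24.6 to 735) in Olfr1295 cells and no UMI in the Olfr912 cell. Kirrel3 was not apart, at 56.2 CPM (18.3 to 131) against 51.3 CPM (45.1 to 58.0), with 3 of its 5 UMIs in the 2 Olfr1295 cells. Scgn, with 3 UMIs, was not apart either, at 33.7 CPM (6.96 to 98.6) against 27.2 CPM.

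In pooled member cells all 8 genes of the activity-lowered list had the higher value, against 52.3% of the 10277 genes, by a median of 0.71 on the log2(CPM + 1) scale, and 2 of them, Efna5 and Plxna1, were at least 2-fold higher, against 12.4% of the 10277 genes. The median over those genes was 0.05. In each of Olfr827, Olfr235 and Olfr1440 taken alone, 6 of the 8 were higher, against 39.0%, 39.4% and 47.8% of all genes. Kirrel3 was lower in all 3, but with 1, 0 and 1 UMIs in their cells it settles no direction. In the summed level of the list the members were numbers 92 (Olfr827), 84 (Olfr1440) and 76 (Olfr235) from the lowest of the 101 receptor genes. Among the 1783 genes at 100 CPM or more in cells of other receptors, where 19 cells resolve a 2-fold gap better, 7.29% were at least 2-fold lower and 1.01% at least 2-fold higher in member cells. At that level 4 of 6 genes of the activity-raised list were 2-fold lower and 1 of 4 genes of the activity-lowered list was 2-fold higher. Several genes of both lists had been named in an earlier analysis of the same files, so their direction is not independent evidence.

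**Figure D5:**
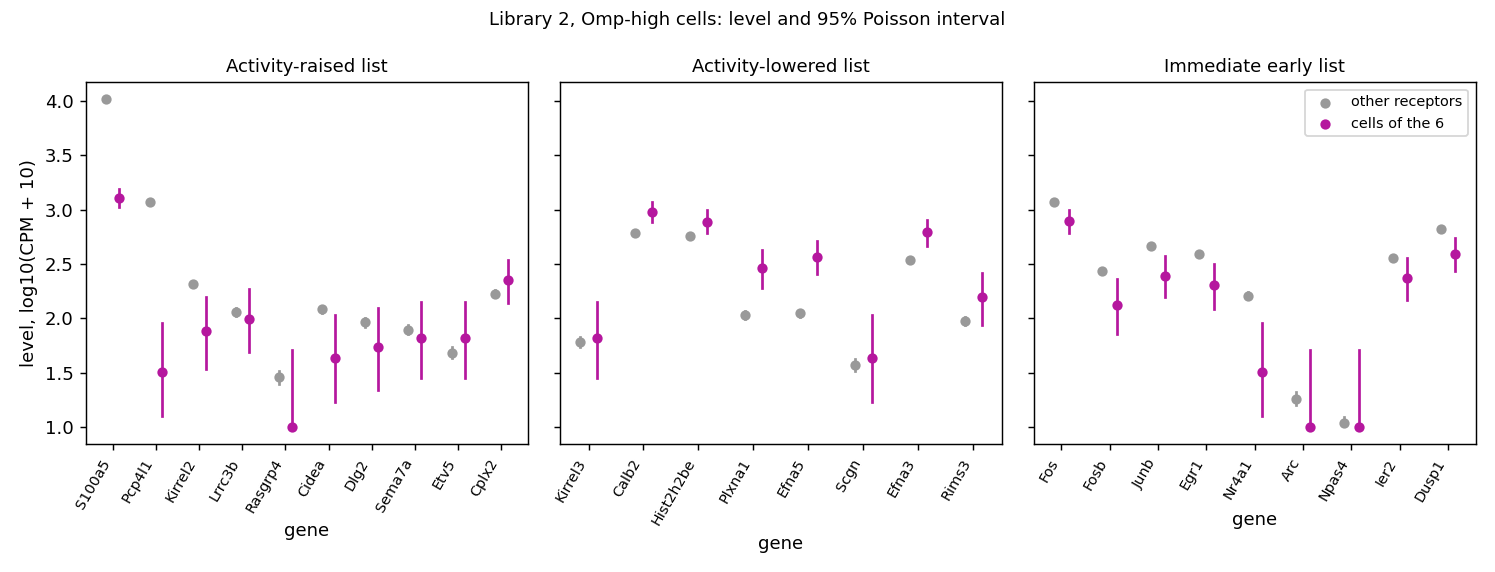
Level of each listed gene as log10(CPM + 10) (y axis) in Omp-high cells of library 2, with 95% Poisson intervals, for 19 cells carrying the 6 receptors and 803 cells carrying other receptors. S100a5 and Pcp4l1 are far lower in member cells, Efna5, Plxna1, Efna3, Calb2 and Hist2h2be are higher while the intervals of Kirrel3, Scgn and Rims3 include the level of other receptors, and the 7 immediate early genes at 10 CPM or more are lower.

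Immediate early genes, which answer within minutes to firing and also to tissue dissociation, were lower as well. The 7 measured at 10 CPM or more were all lower in member cells, by a median of -0.94 on the log2 scale, and 3 of them, Egr1, Fosb and Nr4a1, at least 2-fold, against 47.7% lower and 18.4% at least 2-fold lower among all genes. In Olfr1440 cells alone, 3 of the 7 were higher, against 47.8% of all genes, with a median of -0.07. Fos was at 776 CPM (604 to 982) against 1162 CPM (1132 to 1192), and a single Olfr1440 cell with 9772 UMIs held 37.7% of the member cells' Fos. Fos stood at 222 CPM (60.5 to 568) in Olfr235 cells, 592 CPM (306 to 1034) in Olfr827 cells and 1305 CPM (969 to 1721) in Olfr1440 cells. Single cells held 83.3% of the Fos UMIs of Olfr827 and 52.0% of those of Olfr1440, so the order of the receptors rests on them. The Olfr827 cell is the one with 22.1% mitochondrial UMIs. Sustentacular-type barcodes had more Fos than any of these, 3597 CPM.

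The odour transduction machinery was present in the pooled member cells, at levels within 2-fold of those in cells of other receptors. Of 11 transduction and trafficking genes, 9 were higher in member cells, by a median of 0.42 on the log2 scale, against 50.8% of the 1783 genes at 100 CPM or more, and none was 2-fold apart. Adcy3, the enzyme that makes cyclic AMP in the cilia, was at 787 CPM (614 to 995) against 452 CPM. Rtp1, which brings receptors to the membrane, was at 753 CPM (584 to 957) against 465 CPM, and Omp at 4442 CPM (4015 to 4902) against 3842 CPM. In Olfr1440 cells taken alone, 9 of the 11 genes were lower than in cells of other receptors and 4 of them (Ano2, Cnga2, Cngb1, Stoml3) at least 2-fold, against 51.0% and 12.3% of the 1783 genes. Ano2 and Cngb1 rested on 2 and 3 UMIs. The ciliary membrane protein gene Stoml3 stood at 1436 CPM (1081 to 1869) in Olfr1440 cells, 3355 CPM (2606 to 4254) in Olfr827 cells and 3994 CPM (3125 to 5029) in Olfr235 cells, against 3635 CPM in cells of other receptors. Rtp1 was at 940 CPM (658 to 1301) in Olfr1440 cells.

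Zone genes tell from which part of the epithelium a neuron comes. Nqo1, a marker of the dorsal zone, had 0 UMIs in the 19 cells, which allows up to 41.5 CPM, against 138 CPM (128 to 149) in cells of other receptors. Ncam2, the adhesion molecule of the other zones, was at 101 CPM (46.3 to 192) against 83.1 CPM (75.2 to 91.6). Acsm4, the other dorsal marker measured, had 2 UMIs, both in Olfr827 cells, which puts it at 98.7 CPM (12.0 to 356) in that receptor and at 22.5 CPM (2.72 to 81.2) over the 19 cells, against 53.3 CPM (47.0 to 60.2). In library 1 the 2 Omp-high Olfr827 cells held 1 UMI of Nqo1 and 1 of Acsm4. That Nqo1 UMI lay in the cell of 10948 UMIs that also had sustentacular markers. Nfia had 2 UMIs, 22.5 CPM (2.72 to 81.2), against 108 CPM. Nfib, at 169 CPM (94.4 to 278) against 230 CPM, and Nfix, at 270 CPM (173 to 402) against 243 CPM, were not apart. Of the 6 zone genes 2 were higher and 4 lower in member cells, 3 of these at least 2-fold. Among the 10277 genes 52.3% were higher, 47.7% lower and 18.4% at least 2-fold lower. In library 2 the S100a5 level of cells of other receptors without Nqo1 was 10440.1 CPM and of those with Nqo1 9504 CPM. Cells without a UMI of Nqo1 can still be dorsal, and the part of zone in the members' S100a5 level was not tested. Of 8 axon guidance genes 5 were higher in member cells, against 52.3% of the 10277 genes at 10 CPM or more in either group. Robo2, a receptor for the Slit repellents, was the one 2-fold higher, at 179.9 CPM (103 to 292) against 73.9 CPM (66.5 to 82.0). Among those 10277 genes 12.4% were at least 2-fold higher, so these counts are near the background and are no result about the members.

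In the 3 Omp-high cells of library 1, S100a5 had no UMI. The 2 Olfr827 cells and the Olfr1295 cell held 0 of 23487 UMIs in all, where 3 UMIs would be 128 CPM. The exact interval reaches 157 CPM. These 3 cells carry Olfr827 and Olfr1295, whereas 11 of the 19 in library 2 carry Olfr1440 or Olfr235, so the members' levels in the libraries are not set against each other. In cells of other receptors it was 1451 CPM (1414 to 1488) in library 1 and 7.09 times as high in library 2. No S100a5 UMI was found in 57.6% of those cells in library 1, so 3 cells at 0 are not set apart there. Pcp4l1 had no UMI in the 3 cells either, against 291 CPM (275 to 308) in cells of other receptors. Calb2 was at 1660.5 CPM (1181 to 2270), with 20 UMIs in an Olfr827 cell, 19 in the Olfr1295 cell and 0 in the Olfr827 cell with sustentacular markers. The Olfr827 cell with 20 had 5 UMIs each of Omp and Gap43, at the border of the stages, while the Olfr1295 cell had 50 and 0. Cells of other receptors stood at 1341 CPM there.

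Only Olfr827 and Olfr1295 had Omp-high cells in both libraries. For Olfr827, S100a5 was at 0 in both cells of library 1 and in 3 of 5 cells of library 2. For Olfr1295, S100a5 had 0 UMIs in the cell of library 1 and 5 and 9 UMIs in the cells of library 2, whereas Calb2 had 19 UMIs in the former and 0 in both of the latter. These counts describe single cells, and the difference between libraries was not tested.

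The 3 Gap43-high cells of library 2 were high in S100a5 against the other cells called Gap43-high. They held 568 and 1627 CPM with Olfr912 and 823 CPM with Olfr1440, above 96.0%, 98.9% and 98.0% of the 351 Gap43-high cells of other receptors, whose median was 0. The summed level was 873 CPM (436 to 1562) against 148 CPM (134 to 164), although 1 of the other cells held 31.3% of their UMIs. Omp and Gap43 UMIs in these 3 cells were 10 and 12, 3 and 4, and 2 and 5, so both Olfr912 cells lie near the border to the Omp-high stage. Omp was at 1190 CPM (666 to 1964) in the 3 cells against 211 CPM (193 to 229) in the others, so the groups are not matched within this stage. Calb2 was at 1905 CPM (1220 to 2834) in the 3 cells and at 1230 CPM (1187 to 1274) in the others.

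Some of the nearest relatives and neighbours of the members were carried and others were not. Among all 1135 receptor genes 440 had no carrying cell, so being without one does not set a relative apart. Olfr1431 and Olfr910, the near-identical relatives of Olfr235 and Olfr912, had no carrying cell. Among the 3 closest relatives of each member, Olfr1297 had the most cells. It is 86.4% identical to Olfr1295, lies 45.6 kb from it, and was carried by 5 cells of library 1 and 8 of library 2, with S100a5 at 77.1 CPM in 8 Omp-high cells. Olfr1437, 83.7% identical to Olfr235 and 62.2 kb from Olfr1440, was carried by 6 and 3 cells. By level over the 6 groups of stage and library, the receptor genes most like the members among 610 were Olfr622, Olfr250 and Olfr1383 for Olfr827, Olfr1240, Olfr56 and Olfr350 for Olfr235, and Olfr561, Olfr353 and Olfr1025-ps1 for Olfr1440, each with a Pearson correlation above 0.99. With 6 points dominated by the Omp-high stage, and single cells behind several of these genes, the likeness is a description only.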

How the data were processed

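Per the labels, dead cells were removed from frozen dissociated cells of each side before capture with the Chromium 3' v3 kit. Cell Ranger 3.0.2 and mm10 are named in the submitters' processing notes. The authors deposited 1 matrix of UMI counts for both libraries (31053 genes; 4501 barcodes and 27212821 UMIs in library 1, 7990 and 49221001 in library 2); no source used here says whether depth was equalised when they were joined. The libraries shared 12 barcode sequences, none in a member cell. All barcodes were counted as deposited, and no doublet caller was run. Symbols beginning with Olfr gave 1135 receptor genes, all matched to GENCODE M21 by ID.

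Levels are CPM of summed UMIs, and log2 differences add 1 CPM. Sustentacular-type barcodes had at least 10 UMIs of Cyp2g1, Cyp1a2, Cbr2, Ermn and Muc2 together. Cells are not replicates, so no p-value was computed. Named genes are the members, the lists, each member's 3 closest relatives and 2 nearest receptor genes per side, and the 3 most alike in level; relatives were ranked by coding sequence identity, since no protein table was used. Members and lists were chosen with earlier results of these data known, and the ranks among receptors and the limit of 100 CPM were added after seeing values. Alternatives were a cell filter (at least 1000 UMIs, 500 genes, at most 10% mitochondrial), 2 or 5 UMIs, shares of 1 in 2 or 9 in 10, thinning to 2000 UMIs, a stage from 5 markers each, and a mean over cells. Intervals came from scipy 1.17.1, alignments from Biopython 1.88, tables from pandas 2.3.3 and numpy 2.4.6, and figures from matplotlib 3.10.9, under Python 3.11.15. The carrying rule was checked on simulated data.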

Additional observations from a re-analysis of the deposited data

How the results depend on the processing

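The shares of the 6 receptors in each library, their ratio above 1 and the S100a5 levels kept their direction under the cell filter, the other limits on UMIs and on the share, thinning, the stage from 5 markers each and the mean over cells, wherever each could be applied. S100a5 was not recomputed at 2 UMIs, at a share of 1 in 2 or in thinned cells. Members with a share at least 2-fold higher in library 2 numbered 1; they were 0 after the cell filter, 0 after thinning and 2 at a limit of 2 UMIs. The filter and thinning leave out the 1 cell of Olfr235 in library 1, after which that gene has too few cells to be counted. Without Olfr827, an alternative added after seeing the data, S100a5 in library 2 was 1588 CPM. Cell numbers under 10 per receptor limit every ratio. No paired analysis was possible because there is 1 library per side and no label ties a library to a side.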
